A study of Mus musculus with 8 samples.

Results

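Keratin-associated proteins were measured in belly skin of mice by 43 array probe sets that carried exactly 1 gene symbol beginning with Krtap, among 45037 probe sets that were not array controls. A probe set is a group of array probes that read the same transcript. The 43 probe sets stood for 38 of the 18193 genes named in this way, in 22 families, where a family is the number after Krtap. By family they fell into 14 high sulfur probe sets (12 genes), 14 ultrahigh sulfur probe sets (13 genes) and 15 high glycine-tyrosine probe sets (13 genes). Another 6 probe sets listed a Krtap gene beside other symbols and were not counted as members.

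Keratin-associated proteins are small proteins of the hair shaft, made late in the differentiation of cortex and cuticle cells above the hair bulb. They fill the space between keratin filaments and, through the disulfide bonds of the sulfur-rich classes, cross-link them into a rigid fibre. The high sulfur and ultrahigh sulfur classes are rich in cysteine, and the high glycine-tyrosine class is rich in glycine and tyrosine instead. Their genes lie in clusters and are expressed while a growing follicle builds its shaft.

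The study compared mice carrying hurpin, the human serpin SERPINB13 and an inhibitor of cathepsin L, with wildtype mice. Transgenic animals were the females 7 and 84 and the males 11 and 17. Wildtype animals were the males 26 and 28 and the female 29. All 7 animals were 8 months old, and each gave belly skin for 1 array except wildtype 29, which gave 2 arrays. The promoter of the transgene, the strain and the number of founder lines are not given in the sources used here, and no probe set was annotated to Serpinb13, so the labels could not be checked on the transgene itself. Levels of Xist, Eif2s3y and Kdm5d went with the labelled sex of every animal. Values are log2 of the intensity plus 21.8, written as log2 levels, and their lowest possible value is 4.45. They compare animals within a probe set, not probe sets with each other.

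RefSeq promoters (assembly GRCm38.p6, 250 bases before to 50 after the annotated start) were matched for 36 of the 38 genes, all but Krtap7-1 and Krtap12-1. A TATAAA or TATATA on the strand of the gene lay within the last 110 bases before the start in 34 of 36 member promoters (94.4%), against 5.78% of all 32851 promoters. The exceptions were Krtap5-3 and Krtap5-4. The word TATAAA alone, on either strand of the whole 300 bases, was present in 29 of 36 (80.6%) against 13.6% of all promoters, and TATATA in 18 of 36 against 5.67%. The following sequences show the 110 bases before the start for genes on which the results below turn, 5′ to 3′ on the strand of the gene. Capitals mark TATAAA and TATATA, which overlap in Krtap8-1, and the words GGAAGTGA and AACAAGGAA.
Krtap5-1, chr7:142297135-142297244, minus strand: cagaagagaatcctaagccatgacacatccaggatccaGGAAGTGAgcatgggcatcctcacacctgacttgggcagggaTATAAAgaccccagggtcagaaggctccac
Krtap5-2, chr7:142176006-142176115, minus strand: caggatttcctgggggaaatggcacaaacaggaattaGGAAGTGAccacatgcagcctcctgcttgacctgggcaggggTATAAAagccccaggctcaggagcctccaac
Krtap5-3, chr7:142201254-142201363, plus strand: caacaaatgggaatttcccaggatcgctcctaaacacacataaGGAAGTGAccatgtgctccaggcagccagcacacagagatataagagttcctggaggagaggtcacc
Krtap4-6, chr11:99665961-99666070, minus strand: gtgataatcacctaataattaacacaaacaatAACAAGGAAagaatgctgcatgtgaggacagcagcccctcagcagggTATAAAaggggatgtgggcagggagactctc
Krtap4-16, chr11:99851606-99851715, minus strand: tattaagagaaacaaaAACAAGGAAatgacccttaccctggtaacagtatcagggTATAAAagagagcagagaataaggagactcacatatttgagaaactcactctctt
Krtap19-1, chr16:88869411-88869520, minus strand: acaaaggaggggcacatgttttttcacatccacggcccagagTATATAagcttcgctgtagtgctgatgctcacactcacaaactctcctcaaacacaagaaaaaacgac
Krtap19-2, chr16:88874270-88874379, minus strand: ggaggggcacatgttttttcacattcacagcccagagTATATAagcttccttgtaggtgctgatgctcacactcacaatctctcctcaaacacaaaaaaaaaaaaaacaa
Krtap8-1, chr16:89487953-89488062, minus strand: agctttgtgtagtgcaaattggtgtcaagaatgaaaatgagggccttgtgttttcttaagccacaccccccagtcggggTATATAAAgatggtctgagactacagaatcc
The Krtap5 and Krtap4 sequences are shown because the values of these ultrahigh sulfur families in the female animals are set side by side below. Krtap19-1 and Krtap19-2 are shown because a probe set of each had the widest ranges between animals on this scale, and Krtap8-1 because it is a high glycine-tyrosine gene outside that family. GGAAGTGA, searched on both strands of the 300 bases, was present in 4 of 5 Krtap5 promoters, in Krtap4-6 and in Krtap8-1, which made 6 of 36 (16.7%) against 3.42% of all promoters. AACAAGGAA was present in 4 of 5 Krtap4 promoters and in Krtap26-1, which made 5 of 36 (13.9%) against 0.548%. Both words were picked after reading these promoters, and a match of letters is not a measured binding site. CAATAAA was found in 0 of 36, against 1511 of all 32851 promoters. Aligned over 300 bases, promoters of the same family had a median identity of 56.3% (39 pairs), against 52.7% for 591 pairs from different families. By family the median was 56.7% in Krtap4, 58.1% in Krtap5, 53.4% in Krtap6 and 60.1% for the 1 pair of Krtap13. The most alike were Krtap19-1 and Krtap19-2 at 91.2%, but the 15 pairs of the Krtap19 family had a median of 53.4%.

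Across the animals, almost all members moved together, and their order did not follow the groups. Wildtype 26 had the lowest log2 level in 41 of the 43 probe sets, transgenic 17 the second lowest in 40 and transgenic 11 the third lowest in 38. The highest level was in wildtype 29 for 25 members, in transgenic 7 for 10, in wildtype 28 for 5 and in transgenic 84 for 3. The mean log2 level over the 43 members was 12.85, 11.66, 9.35 and 12.82 in transgenic 7, 11, 17 and 84, and 6.68, 13.15 and 13.30 in wildtype 26, 28 and 29. The lowest and the highest mean were thus both in the wildtype group, and the 4 transgenic means lay between them. In whole skin, fewer cells of a type and less RNA per cell cannot be told apart.

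The distance between animals was large for array data. The range over the 7 animals had a median of 7.27 over the 42 members that passed the filter on low levels, against 0.93 over all 27022 probe sets that passed it. A range of at least 4 log2 units was found in 39 of 42 members, against 205 probe sets (0.759%) of all tested, and 40 of 42 lay at or above the 99th percentile of 3.65. The widest on this scale was Krtap19-2 with 9.64, where wildtype 26 stood at 5.36, near the lowest possible value, so that the size of such ranges depends on the 21.8 added. The repeat array gave no such distance: both arrays of wildtype 29 differed by a median of 0.087 log2 units over these 42 members, at most 0.74, against 0.19 over all tested probe sets. The spread within groups (residual SD) had a median of 2.93 for the members and 0.32 for all tested probe sets.

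**Figure D1:**
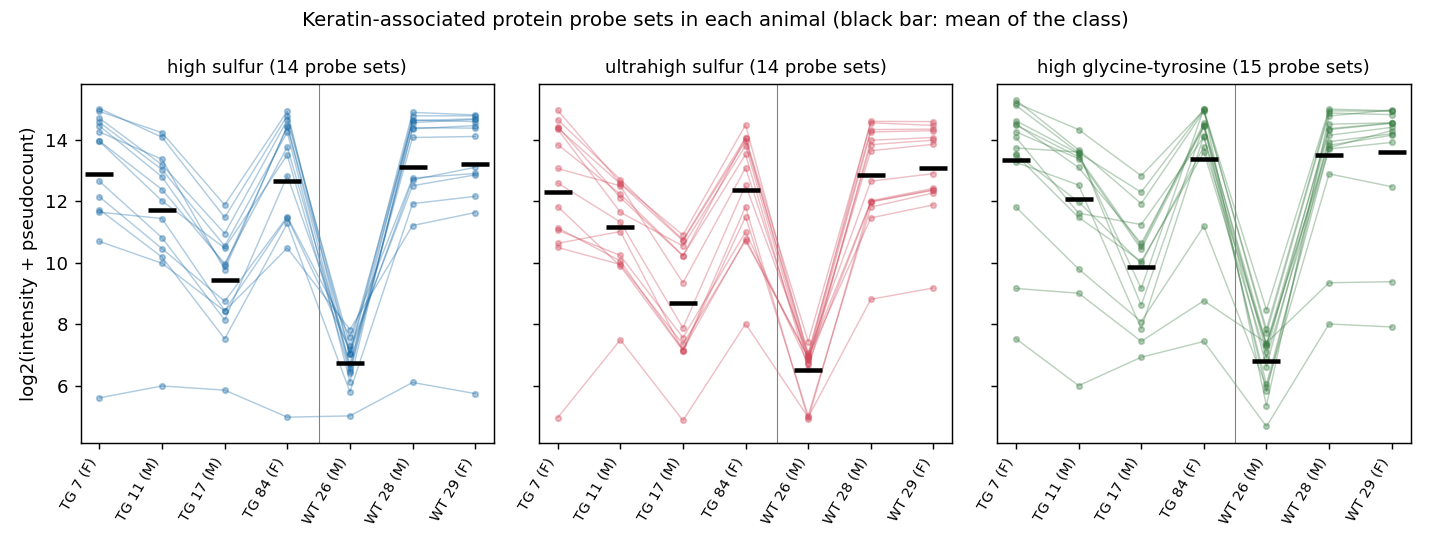
Log2 level (intensity plus 21.8) of each of the 43 keratin-associated protein probe sets in the 7 animals, in panels by class; a thin line joins the values of 1 probe set, black bars are class means, TG is transgenic, WT is wildtype, and F and M give the sex. Wildtype 26 is lowest in 41 probe sets and transgenic 17 the second lowest in 40, while the other 5 animals have class means of 11.17 to 13.60.

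In the following, transgenic values are in the order of animals 7, 11, 17 and 84, and wildtype values in the order of animals 26, 28 and 29. The high sulfur class had mean log2 levels of 12.88, 11.71, 9.44 and 12.66 in transgenic and 6.74, 13.10 and 13.20 in wildtype skin. Krtap1-5, of a family found in the hair cortex, measured 14.70, 13.18, 10.95 and 14.64 in transgenic and 7.31, 14.61 and 14.68 in wildtype skin. The range of 7.38 came from wildtype 26 and transgenic 17, and the other 5 animals lay within 13.18 to 14.70. Krtap3-1, also of a cortical family and of the same gene cluster on chromosome 11, had log2 levels of 13.94, 12.01, 10.48 and 13.50 in transgenic and 6.42, 14.39 and 14.37 in wildtype skin. Here both other wildtype animals stood above all transgenic animals, while wildtype 26 stood below all of them. Krtap11-1 on chromosome 16 had the widest range of the class (8.50) with 14.56, 13.03, 10.55 and 14.25 in transgenic and 6.14, 14.64 and 14.58 in wildtype skin, and Krtap15 measured 15.01, 14.08, 11.47 and 14.78 in transgenic and 7.08, 14.88 and 14.80 in wildtype skin. In Krtap15 the highest animal was transgenic 7 and the lowest wildtype 26, and the groups overlapped.

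The other high sulfur genes, apart from Krtap13, also had their low levels in wildtype 26 and transgenic 17. Krtap13-1 had 13.95, 12.38, 9.97 and 13.76 in transgenic and 6.72, 14.07 and 14.10 in wildtype skin. Krtap14 had 14.44, 12.79, 9.90 and 14.42 in transgenic and 7.03, 14.55 and 14.65 in wildtype skin, where transgenic 17 deviated by -4.53 from the median animal. Krtap16-3 was read by a pair of probe sets with ranges of 7.95 and 8.34, and the brighter gave 14.92, 14.22, 11.88 and 14.92 in transgenic and 6.58, 14.77 and 14.77 in wildtype skin. Counted here as high sulfur by its number, Krtap16-3 lies among Krtap19 and Krtap22 genes in the RefSeq order of chromosome 16. Krtap31-1 on chromosome 11 had 12.65, 10.81, 8.15 and 12.83 in transgenic and 7.05, 12.69 and 13.10 in wildtype skin. Krtap26-1 had the narrower range of 5.30, with 12.14, 10.46, 8.75 and 11.50 in transgenic and 7.60, 12.75 and 12.90 in wildtype skin. Krtap10-4 and Krtap12-1, of families described in the cuticle of the human hair shaft, lie on chromosome 10. Krtap10-4 measured 11.65, 11.44, 8.45 and 11.47 in transgenic and 7.19, 12.50 and 12.85 in wildtype skin, and in it transgenic 11 stood within 0.21 of transgenic 7 and deviated by -0.029 from the median animal. Krtap12-1 had 11.73, 10.18, 7.53 and 11.28 in transgenic and 5.82, 11.92 and 12.16 in wildtype skin on its brighter probe set, while its other probe set spanned 3.80 log2 units. Krtap13 was the member that did not pass the filter on low levels, with 4.99 to 6.12 in all animals, and its arrays of wildtype 29 differed by 1.56.

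In the ultrahigh sulfur class, mean log2 levels were 12.31, 11.17, 8.71 and 12.38 in transgenic and 6.51, 12.85 and 13.07 in wildtype skin. The class joins the cortical Krtap4 and Krtap9 families on chromosome 11 with Krtap5, which is described in the hair cuticle and lies on chromosome 7. Krtap4-16 measured 14.95, 12.59, 10.90 and 14.48 in transgenic and 6.97, 14.59 and 14.58 in wildtype skin, and Krtap4-2 measured 14.34, 11.64, 10.54 and 13.80 in transgenic and 6.76, 13.84 and 13.98 in wildtype skin. In both, transgenic 7 was the highest of all animals. All 5 Krtap4 genes had transgenic 11 low, with a median deviation of -1.89 from the median animal. Krtap9-3 had 13.84, 12.23, 10.23 and 13.52 in transgenic and 6.54, 13.98 and 14.07 in wildtype skin.

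In the Krtap5 genes wildtype 26 and transgenic 17 were again low, apart from the order in Krtap5-3. The brighter probe set of Krtap5-1 had 11.06, 10.24, 7.57 and 11.00 in transgenic and 6.72, 11.98 and 12.36 in wildtype skin, and Krtap5-4 had 11.83, 9.90, 7.15 and 11.50 in transgenic and 5.04, 11.81 and 12.27 in wildtype skin. On this probe set of Krtap5-1 all 4 transgenic animals stood below wildtype 28 and 29 by at least 0.91 log2 units, and on the other by at least 0.85. Transgenic 11 had a median deviation of -0.63 from the median animal over the 6 Krtap5 probe sets and was itself the median animal for Krtap5-2 and Krtap5-3. Krtap5-3 was the member with the most unusual order, at 4.98, 7.50, 4.88 and 8.02 in transgenic and 4.99, 8.82 and 9.18 in wildtype skin. Transgenic 7 and 17 and wildtype 26 were there at 4.88 to 4.99, close to the lowest possible value, and the other 4 animals at 7.50 to 9.18. Krtap17-1, another family of the cuticle, had 13.06, 12.50, 9.35 and 13.08 in transgenic and 6.84, 13.64 and 13.85 in wildtype skin, and Krtap28-13, the only member on chromosome 1, had 12.59, 11.33, 7.89 and 12.52 in transgenic and 7.02, 12.65 and 12.90 in wildtype skin.

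The high glycine-tyrosine class had mean log2 levels of 13.34, 12.07, 9.87 and 13.38 in transgenic and 6.80, 13.49 and 13.60 in wildtype skin, and all its genes lie on chromosome 16. Krtap8-1 had 15.19, 14.32, 12.83 and 14.95 in transgenic and 8.47, 14.99 and 14.93 in wildtype skin, where transgenic 17 deviated by -2.11 from the median animal. Krtap6-5 had 15.11, 13.57, 12.29 and 14.98 in transgenic and 7.71, 14.86 and 14.81 in wildtype skin, and Krtap22-2 had 15.29, 13.67, 11.92 and 14.93 in transgenic and 7.85, 14.94 and 14.92 in wildtype skin. In all 3 genes transgenic 7 was the highest animal. Krtap6-2 had 13.50, 11.47, 10.05 and 13.60 in transgenic and 6.92, 13.70 and 13.91 in wildtype skin, and the brighter probe set of Krtap6-3 had 14.07, 11.61, 11.24 and 14.09 in transgenic and 7.32, 13.93 and 14.19 in wildtype skin. The other probe set of Krtap6-3 spanned 3.33 against 6.87, and was the only member in which transgenic 11 rather than transgenic 17 came second lowest after wildtype 26. Krtap7-1, the only member of its family, had 11.81, 9.80, 8.09 and 11.19 in transgenic and 5.97, 12.89 and 12.47 in wildtype skin, and Krtap21-1 had 13.52, 11.98, 9.98 and 13.77 in transgenic and 7.31, 13.82 and 14.14 in wildtype skin.

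Krtap19, the largest family here with 7 probe sets, held both the smallest range (1.99) and the widest (9.64) of the 42 members tested. Krtap19-5 had 14.47, 13.44, 10.53 and 14.54 in transgenic and 7.10, 14.50 and 14.54 in wildtype skin. Krtap19-2 measured 5.36 in wildtype 26 and 9.17 in transgenic 17, against 13.55 or more in the other 5 animals. Over the family, the deviation of transgenic 17 from the median animal had a median of -3.94 and reached -5.45 for Krtap19-2. A pair of probe sets for Krtap19-1 disagreed in size, with ranges of 1.99 and 8.63. Members that are near-identical copies may share signal, and 3 members carried the array's suffix for probes shared by several transcripts and 1 the suffix for cross-hybridising probes. The 3 were that of Krtap11-1 and the brighter probe sets of Krtap12-1 and Krtap16-3. The 1 was the brighter probe set of Krtap5-1.

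The order of the animals by mean level was shared by the hair shaft keratin and inner root sheath lists. In the matrix list only transgenic 7 (10.98) and 84 (11.11) changed places. The means of the epidermal, outer follicle, muscle, fibroblast and adipocyte lists had smaller ranges. The 12 hair shaft keratins measured, the filament partners of these proteins, had a mean log2 level of 12.42, 11.66, 9.06 and 12.37 in transgenic and 6.80, 13.04 and 13.20 in wildtype skin. The inner root sheath and companion layer list, keratins and trichohyalin of the cells that mould the shaft, had 13.77, 12.96, 10.23 and 13.49 in transgenic and 7.64, 14.03 and 14.07 in wildtype skin. Shaft regulators and matrix genes ran from 7.50 in wildtype 26 and 8.28 in transgenic 17 to 11.57 in wildtype 29. Of these, Foxn1, Msx2, Dlx3 and Lef1 were lowest in transgenic 17, followed by wildtype 26. The others, apart from Krt23, were lowest in wildtype 26. Hoxc13, the homeobox factor of the differentiating shaft, measured 10.01, 10.02, 7.89 and 10.24 in transgenic and 7.50, 10.43 and 10.62 in wildtype skin, and S100a3, a calcium-binding protein of the hair cuticle, measured 13.28, 13.06, 9.27 and 13.27 in transgenic and 6.25, 13.99 and 14.21 in wildtype skin. The means of the interfollicular epidermis list spanned 0.49 log2 units over the 7 animals, those of the outer follicle and stem cell list 0.58, of skeletal muscle 0.79, of dermal fibroblasts 0.96 and of adipocytes 1.70. Those of cell division genes spanned 1.98. Those of melanocyte genes spanned 3.35, with the lowest means also in transgenic 17 (7.85) and wildtype 26 (8.31). Such means can hide single genes that move in opposite directions. In the outer follicle list, Lhx2 (range 1.77) and Tbx1 (1.66) were lowest in transgenic 17 and wildtype 26, while Cd34 (1.39) was highest there. In the epidermal list, Krt1 spanned 2.22, from 11.74 in wildtype 29 to 13.96 in wildtype 26. Lep of the adipocyte list spanned 3.91, with 9.34 to 11.04 in transgenic and 7.13 to 8.55 in wildtype skin. Its group difference was not called (limma adjusted p = 0.217), and Adipoq and Fabp4 of that list spanned 0.93 and 0.60. No defining gene of the epidermal, fibroblast or muscle lists was near the lowest possible value in any animal, with minima of 11.66, 13.53 and 12.03. The part of these lists in the levels of the members was not tested.

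**Figure D2:**
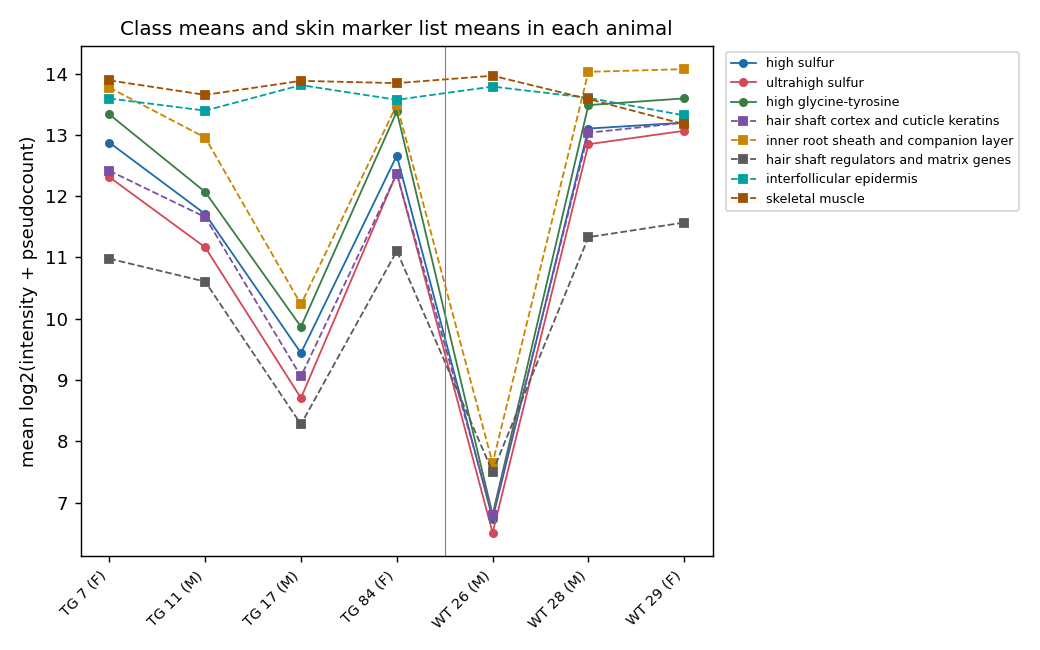
Mean log2 level of the 3 classes (solid lines, circles) and of 5 skin marker lists (dashed lines, squares) in each animal. The class means, hair shaft keratins, inner root sheath and matrix genes share their lowest points in wildtype 26 and transgenic 17, while the epidermal and muscle means span 0.49 and 0.79 log2 units.

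The comparison of hurpin-transgenic with wildtype skin gave no called difference for any keratin-associated protein. Of the 42 members tested, 0 passed the adjusted threshold of 0.05 in limma, against 4 of 27022 probe sets (0.0148%), and 0 had an unadjusted p under 0.05, against 11.7% of all. Groups did not overlap in 0 of 42 members, against 11.3% of all tested probe sets. The difference, transgenic minus wildtype on the log2 scale, was above 0 in 33 and below 0 in 9 of the 42, against 50.2% and 49.8% of all, with a median of 0.85 against 0.001 for all. By class over all members, the median was 0.78 for high sulfur, 0.47 for ultrahigh sulfur and 1.08 for high glycine-tyrosine probe sets. The limma adjusted p ran from 0.674 for Krtap5-3 to 0.985 for Krtap10-4.

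Intervals were wide, and differences of several log2 units in either direction lay within them. Krtap8-1 measured 14.32 ± 1.06 and 12.80 ± 3.75 in transgenic and wildtype skin (SD, n = 4 and 3), a difference of 1.53 (95% interval -1.77 to 4.82, limma adjusted p = 0.703). Krtap16-3 had the largest difference above 0, at 1.94 (95% interval -2.25 to 6.13, limma adjusted p = 0.702) on its brighter probe set. That probe set carries the suffix for probes shared by several transcripts, and the other probe set of Krtap16-3 gave 1.19. Krtap4-16 had 1.18 (95% interval -2.93 to 5.29, limma adjusted p = 0.828). In these genes the wildtype mean was pulled down by wildtype 26, and wildtype 28 and 29 stood above the transgenic mean. Krtap5-3 lay furthest below 0, at -1.32 (95% interval -3.91 to 1.28, limma adjusted p = 0.674), followed by a probe set of Krtap5-1 at -0.65 and by Krtap5-5 at -0.46. Of the 6 Krtap5 probe sets 4 lay below 0 (median -0.42), while all 5 Krtap4 probe sets lay above it (median 0.99). With 4 and 3 animals these values do not show that the groups are alike.

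A single wildtype animal set the direction for the 33 members above 0, while 9 lay below 0 with all animals. Without wildtype 26, all 42 members lay below 0, against 48.9% of all tested probe sets, with a median of -1.57 against 0.011 for all. None passed the adjusted threshold in limma (2 of 27022, 0.0074%), and 8 had an unadjusted p under 0.05, all below 0, against 7.87% of all. The groups then did not overlap in 21 of 42 members, all with transgenic lower, against 14.1% of all probe sets with transgenic lower and 15.1% with transgenic higher. Wildtype 26 was the lowest animal in 41 of the 43 probe sets, so leaving it out raises the wildtype mean. Transgenic 17, the second lowest in 40, stayed in this fit. The signs and the lack of overlap therefore do not show that the groups differ. The 8 members were both probe sets of Krtap5-1, Krtap5-3, Krtap5-5, Krtap7-1, Krtap10-4, Krtap26-1 and a probe set of Krtap12-1. Their differences without wildtype 26 ran from -2.66 for Krtap5-3 (limma adjusted p = 0.257) to -1.52 for Krtap12-1 (0.274). Left out in the same way, wildtype 28 or 29 moved the median to 2.07 or 2.09, and transgenic 17 moved it to 1.66.

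**Figure D3:**
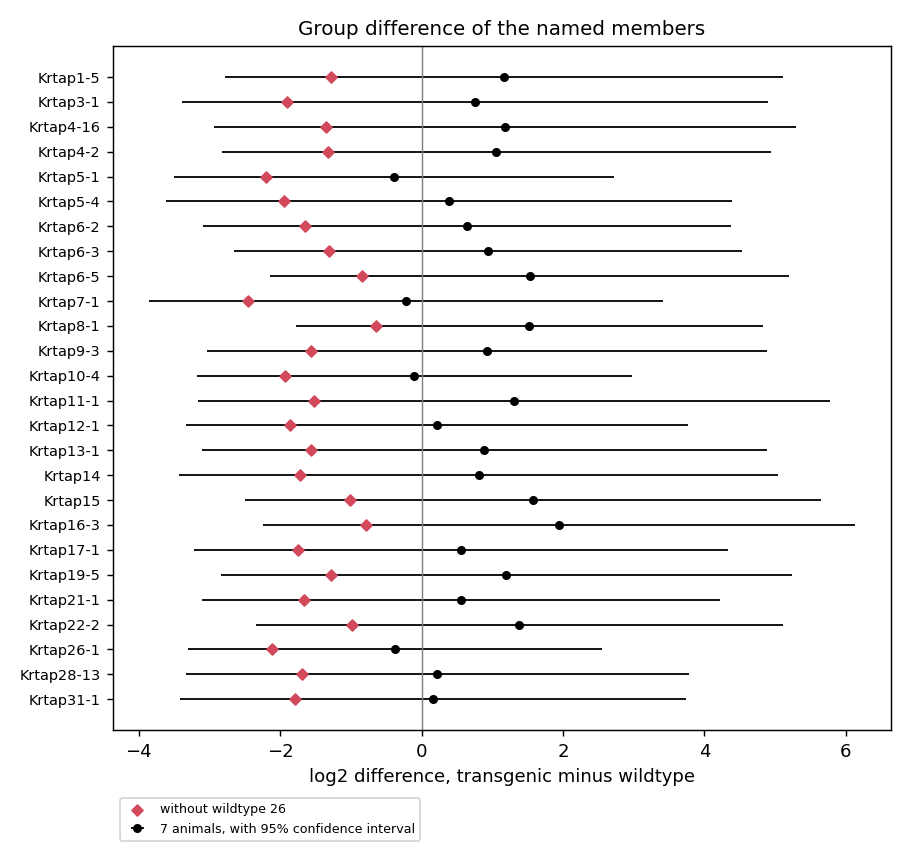
Log2 difference, transgenic minus wildtype, of the 26 named members; black points are the 7 animals with 95% confidence intervals, and red diamonds are the values without wildtype 26. Every interval spans 0, and every diamond lies below 0, from -2.46 for Krtap7-1 to -0.64 for Krtap8-1.

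Between the sexes, with group as a second term in the model, all 42 members were lower in males, against 44.1% of all tested probe sets. The median difference, male minus female, was -2.99, and none passed the adjusted threshold in limma (61 of 27022, 0.226%). An unadjusted p under 0.05 was reached by 7 members, against 10.9% of all. They were Krtap4-2, Krtap5-4, Krtap6-2, Krtap6-3, Krtap21-1, Krtap28-13 and Krtap31-1. The smallest p was that of Krtap31-1, with a difference of -3.25 (SE 1.20, limma adjusted p = 0.404). The animals behind this were not 4 alike males: wildtype 26 and transgenic 17 were the lowest in nearly all members, wildtype 28 had class means within 0.22 of those of female wildtype 29, and transgenic 11 lay between. The interaction of group and sex, the male minus the female difference, was above 0 in 41 of 42 members, against 53.2% of all, with a median of 0.97. It passed the adjusted threshold in 0 members and in 0% of all probe sets in limma, and had an unadjusted p under 0.05 in 0 members, against 2.86% of all.

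Among the 3 females the mean over the members lay within 12.82 to 13.30. Transgenic 7 and 84 both stood below both arrays of wildtype 29 in 25 of the 42 members tested, against 31.4% of all probe sets, and both stood above them in 2 (Krtap6-5 and a probe set of Krtap16-3), against 29% of all. In the model of group and sex, the female difference, an alternative added after seeing the data, had a median of -0.32 over the 42 members. It passed the adjusted threshold in limma in 0 members and 0% of all tested probe sets, and had an unadjusted p under 0.05 in 0 members, against 11.3% of all. The smallest p among the members was that of Krtap5-3 (adjusted p = 0.624 in limma). This fit takes the lone wildtype female to vary like the other animals, males included, and the interaction above rests on the same animal. All 6 Krtap5 probe sets were lower in both transgenic females, with a median of -1.30. On the linear scale of intensity plus 21.8, Krtap5-1 stood at 0.374 and 0.399 of wildtype 29 on its probe sets, Krtap5-2 at 0.438, Krtap5-5 at 0.414 and Krtap5-4 at 0.656. Krtap5-3 was at log2 levels of 4.98 and 8.02 in transgenic 7 and 84 and 9.18 in wildtype 29, and no ratio is given because transgenic 7 was near the lowest possible value. Krtap10-4 (-1.30), Krtap26-1 (-1.08), Krtap12-1 (-1.04 and -0.65 on its probe sets), Krtap7-1 (-0.97) and Krtap17-1 (-0.77) were lower in the same way. So were, among others, Krtap3-1 (-0.65) and Krtap9-3 (-0.39) of cortical families, Krtap19-4 (-0.60) and Krtap21-1 (-0.50). In contrast 0 of 5 Krtap4 probe sets lay below in both females (median -0.053). In all 5, transgenic 7 stood above the mean of wildtype 29 and transgenic 84 below it. Krtap1-5 (-0.011), Krtap8-1 (0.14), Krtap15 (0.093) and Krtap22-2 (0.19) also did not lie below in both. These were bright probe sets. In wildtype 29 the Krtap4 probe sets read 13.98 to 14.58 and the genes just named 14.68 to 14.93, against 9.18 to 12.42 for Krtap5. Krtap3-1, lower in both females, read 14.37. The part of signal level in this contrast was not tested.

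Krt32 and Krt82, keratins of the hair cuticle picked here after their values were seen, were also lower in both transgenic females, with differences of -0.75 and -1.83, as were 11 of the 12 hair shaft keratins (median -0.80). Among these, Krt36 (-1.34), Krt33b (-1.23), Krt84 (-1.18), Krt35 (-1.16) and Krt83 (-0.86) lay further below 0 than Krt32. The exception was Krt33a (0.068). The ratio of 3′ to 5′ Gapdh probe signal, which rises when RNA is broken, was 13.8 and 17.2 in transgenic 7 and 84 and 1.14 in wildtype 29. It was 1.45 and 4.68 in transgenic 11 and 17 and 1.14 and 1.03 in wildtype 26 and 28. Every transgenic animal had a higher ratio than every wildtype animal, so RNA quality and group cannot be told apart. The part of RNA quality in the female values was not tested. With the log2 of this Gapdh ratio as a covariate the group difference had a median of -0.59 over the 42 members. In limma 0 were called (0 of 27022), and 0 had an unadjusted p under 0.05, against 3.15% of all. Because the ratio went with group, this fit separates them poorly. The SE of Krtap8-1 rose from 1.45 to 2.39.

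**Figure D4:**
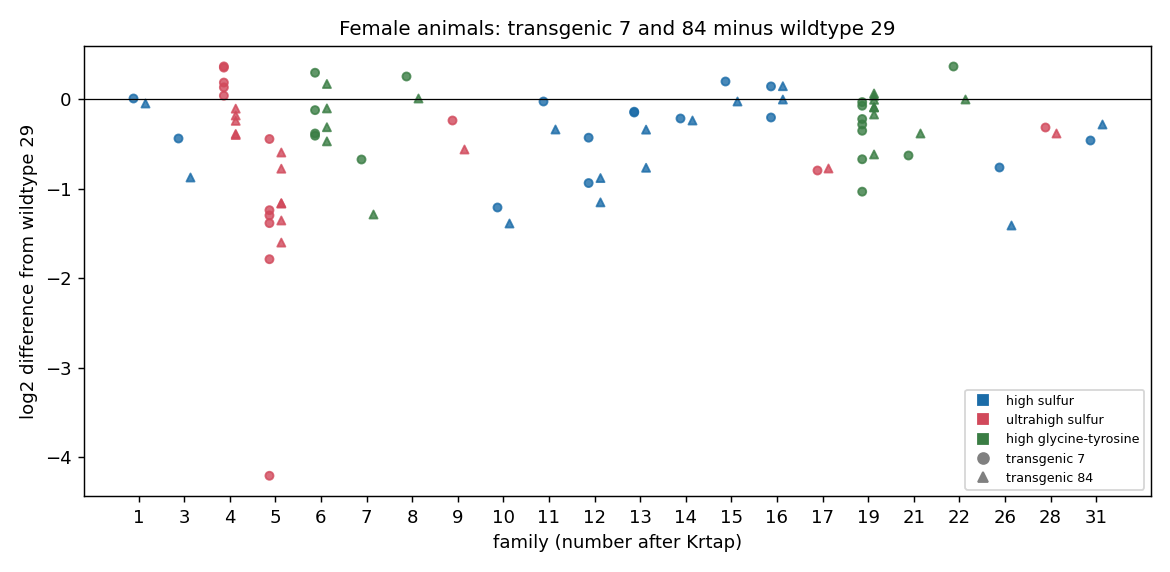
Log2 difference of transgenic 7 (circles) and transgenic 84 (triangles) from wildtype 29, the mean of its 2 arrays, for each of the 43 probe sets by family number, coloured by class. All Krtap5 probe sets lie below 0 in both animals, down to transgenic 7 in Krtap5-3. The Krtap4 probe sets lie nearer 0, all above it in transgenic 7 and all below it in transgenic 84.

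Members also differed in their level in transgenic 11, a male with an intermediate level of hair genes. Its deviation from the median animal had a family median of -1.89 in Krtap4 and -1.73 in Krtap6 and was -1.49 for Krtap3-1. The family median was -0.87 in Krtap19 and -0.63 in Krtap5, and the deviation was -0.61 for Krtap8-1, -0.56 for Krtap17-1 and -0.029 for Krtap10-4. Its Gapdh ratio was 1.45, and the part of RNA quality in these values was not tested.

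Relative to the hair shaft keratins, differences between groups lay on both sides of 0. With the mean log2 level of the 12 hair keratins as a covariate, an alternative added after seeing the data, the median difference over the 42 members was 0.41, with 27 above 0 and 15 below, against 50.2% and 49.8% of all tested probe sets. The adjusted threshold was passed in limma by 2 of the 42 members, Krtap19-3 (0.86, adjusted p = 0.0479) and Krtap19-5 (0.77, adjusted p = 0.0479), against 37 of 27022 (0.137%). At an unadjusted p under 0.05, 16 members lay above 0, against 7.08% of all, and 6 below it, against 9.99%. Those above held Krtap8-1 (1.18), Krtap15 (1.15) and Krtap6-5 (1.14). All 6 Krtap5 probe sets lay below 0 (median -0.73), and so did Krtap10-4 (-0.42), Krtap12-1 (-0.54 and -0.16 on its probe sets) and Krtap26-1 (-0.68). The covariate was itself measured on these 7 animals and ran from 6.80 in wildtype 26 to 13.20 in wildtype 29. Wildtype 26 and transgenic 17 (9.06) lay furthest from the other animals, so its slope rests largely on them. In transgenic 7 and 84 it was 12.42 and 12.37, and in wildtype 28 it was 13.04. Krtap19-5 itself was level in these animals, at 14.47 and 14.54 in transgenic 7 and 84 and 14.50 and 14.54 in wildtype 28 and 29. The part of a limit on bright signal was not tested.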

How the data were processed

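Total RNA from belly skin was labelled with a one-cycle protocol and hybridised to Affymetrix mouse arrays, per the labels. The authors deposited signal intensity on a linear scale from MAS5 (version not given in the sources used here), and the mean of each array without its lowest and highest 2% of values was 500.003 on all 8 arrays. From these values the log2 of intensity plus 21.8, their 20th percentile, was taken, with no further normalization, and the arrays of wildtype 29 were averaged. Of 45101 probe sets 64 were controls, 34945 had 1 symbol, 932 several and 9160 none. Probe sets with a mean log2 level under the 40th percentile (6.45) were left out of tests. Groups, sexes and their interaction were compared across all 27022 remaining probe sets with limma 3.58.1 in R 4.3.3 (empirical Bayes with a trend, 2-sided, Benjamini-Hochberg threshold 0.05), which was tested on simulated data. Summaries and promoter alignments used Python 3.11.15, pandas 2.3.3, numpy 2.4.6 and Biopython 1.88, and figures matplotlib 3.10.9.

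Named members were, per family, the probe set with the highest mean level, plus every member with an unadjusted p under 0.05 for group, sex or interaction or with groups that did not overlap over the 7 animals. Other members and the marker genes named were chosen after their values were seen. Members and lists were chosen with earlier results of these data known. Detection calls and protein sequences were not used here. The labels name separate animals, and the number of arrays limits the precision. Alternatives covered normalization, pseudocount, filter, variance model, covariates, the arrays of wildtype 29, annotation and each animal left out.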

Additional observations from a re-analysis of the deposited data

Results flagged for a closer look

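In 3 of the 43 members transgenic 17 stood apart from the other transgenic animals by more than the 95% limit of Dixon's test for 4 samples, a gap of over 0.829 of the range of the group. Krtap19-1 (its probe set of wider range) was at 8.62 in transgenic 17 and at 13.60 to 14.46 in the others. Krtap10-4, of a cuticle family, was at 8.45 against 11.44 to 11.65. Krtap17-1 was at 9.35 against 12.50 to 13.08. Chance flags about 1 in 20 groups, 43 groups were examined, and the members share the same animals. The wildtype group, with 3 animals, was not examined this way.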

How the results depend on the processing

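No member was called for the group difference under any alternative run except the hair keratin covariate, which called 2. Quantile and cyclic loess normalization, the arrays of wildtype 29 taken singly, no filter or a filter at the 60th percentile, no trend, a robust fit and a pseudocount of 5.45 changed the sign of none of the 26 named members, and the median of the tested members stayed between 0.75 and 0.90. Covariates did change signs, and 1 of them, the Gapdh ratio, was higher in every transgenic than in every wildtype animal. With the Gapdh ratio, 15 turned below 0, namely Krtap1-5 -0.21, Krtap3-1 -0.68, Krtap4-16 -0.61, Krtap4-2 -0.90, Krtap5-4 -1.29, Krtap6-2 -1.11, Krtap6-3 -0.99, Krtap9-3 -0.38, Krtap12-1 -1.09, Krtap13-1 -0.51, Krtap14 -0.79, Krtap17-1 -0.23, Krtap21-1 -0.97, Krtap28-13 -1.14 and Krtap31-1 -1.67, and the median became -0.59. With the hair keratin mean, Krtap5-4 -0.036, Krtap12-1 -0.16, Krtap28-13 -0.15 and Krtap31-1 -0.21 did so. With sex, Krtap5-4 -0.19, Krtap12-1 -0.27, Krtap28-13 -0.27 and Krtap31-1 -0.38 did so, and the median became 0.29. A pseudocount of 87.2 turned Krtap12-1 to -0.024. The cause was not tested. With an animal left out, the median ran from -1.57 without wildtype 26 to 2.09 without wildtype 29, and the named members ranged as follows: Krtap1-5 -1.28 to 2.40, Krtap10-4 -1.93 to 0.90, Krtap11-1 -1.51 to 2.74, Krtap12-1 -1.86 to 1.31, Krtap13-1 -1.57 to 2.12, Krtap14 -1.71 to 2.10, Krtap15 -1.01 to 2.89, Krtap16-3 -0.79 to 3.31, Krtap17-1 -1.74 to 1.76, Krtap19-5 -1.28 to 2.44, Krtap21-1 -1.66 to 1.75, Krtap22-2 -0.98 to 2.57, Krtap26-1 -2.11 to 0.54, Krtap28-13 -1.69 to 1.29, Krtap3-1 -1.90 to 2.09, Krtap31-1 -1.79 to 1.24, Krtap4-16 -1.36 to 2.45, Krtap4-2 -1.33 to 2.28, Krtap5-1 -2.20 to 0.62, Krtap5-4 -1.95 to 1.67, Krtap6-2 -1.65 to 1.84, Krtap6-3 -1.31 to 2.13, Krtap6-5 -0.85 to 2.73, Krtap7-1 -2.46 to 0.999, Krtap8-1 -0.64 to 2.62, Krtap9-3 -1.57 to 2.20. Called probe sets among all numbered 4, and 0 with the Gapdh ratio, 37 with the hair keratin mean, 2 with the filter at the 60th percentile, 10 with a pseudocount of 87.2, 9 with the second array of wildtype 29, 11 with sex and 0 to 269 with an animal left out, the highest without transgenic 11. Taking 1 probe set per gene gave a median of 0.89, updated symbols changed no member, and Krtap16-3 counted with the high glycine-tyrosine class moved that class's median from 1.08 to 1.15. Low signal limits Krtap13, Krtap5-3 and the levels of wildtype 26, several of which were near 4.45. No paired analysis was possible because the groups share no replicate numbers.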

Other observations

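The 6 probe sets that list a Krtap gene beside other symbols, which cannot be given to a single gene, had wildtype 26 lowest in every case. The probe set for Krtap2-4 and its neighbours measured 14.13, 11.43, 9.25 and 13.39 in transgenic 7, 11, 17 and 84 and 6.06, 13.40 and 13.64 in wildtype 26, 28 and 29. That for Krtap6-1 and its neighbours measured 14.90, 13.13, 11.77 and 14.76 in transgenic and 7.65, 14.54 and 14.54 in wildtype skin. Of 2 probe sets shared by Krtap3-2 and Krtap3-3, one gave 11.71, 9.40, 10.62 and 11.36 in transgenic and 7.32, 13.94 and 14.02 in wildtype skin, so that all transgenic animals stood at least 2.23 log2 units below wildtype 28 and 29 and above wildtype 26. The other gave 8.76, 7.06, 6.24 and 8.36 in transgenic and 5.54, 9.20 and 9.49 in wildtype skin, in the same order against wildtype animals but with a smallest gap of 0.44.

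Not all genes listed with the shaft regulators followed the members. Krt23 spanned 0.59 log2 units over the 7 animals. Foxq1, the forkhead factor mutated in satin mice, spanned 1.14 on the brighter of its 2 probe sets. This probe set carries the array's suffix for cross-hybridising probes, and the other is not given here. Msx2, a homeobox factor of the hair matrix, spanned 4.32 on the brighter of its 2 probe sets. It was lowest in transgenic 17 (7.05), with wildtype 26 at 7.16. The melanocyte genes Dct, Tyrp1, Pmel, Mlana and Tyr all lay below 0 for transgenic minus wildtype (median -0.85), with 0 called in limma. Their mean was 7.85 in transgenic 17 and 8.31 in wildtype 26, the lowest animals, and 9.09 to 11.20 in the other 5.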
